A study of Brassica rapa with 12 samples.

Results

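A set of 13 genes of Chinese cabbage (Brassica rapa) that were already abundant in unheated plants and stood 2 to under 8 times higher after a short heat treatment, in wild type and in gi plants alike, is described here. They were selected by their measured levels, so that fact is not a finding. The level used was CPM, the counts of a gene per 1000000 counts in genes after scaling of the libraries by TMM, edgeR's trimmed mean of M-values. A gene was taken when its mean was at least 200 CPM at 22 °C in both genotypes and its mean at 37 °C was from 2 to under 8 times as high in both. Of 47249 genes in the tables, 28846 had enough counts to be tested, 373 reached 200 CPM at 22 °C in both genotypes, and 13 met the whole rule.

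The study measured messenger RNA of whole plants of the cultivar Chiifu, grown for 2 weeks in 1/2MS medium. The wild type, labelled as early flowering, was compared with gi plants, in which the gene GIGANTEA had been edited and which were labelled as late flowering; for the kind of edit and the number of edited lines, no description was given in the sources used here. Each genotype was sampled unheated, at 22 °C, and after 1 h of heat at 37 °C, with 3 libraries in each of the 4 groups. The labels do not say whether replicates came from separate cultures; the p-values below therefore refer to the spread among these libraries, and that spread may be technical. Because whole plants were sampled, a change in the number of cells that use a gene and a change in RNA per cell cannot be told apart.

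In plants a rise in temperature activates heat stress transcription factors, which switch on genes for chaperones, proteins that keep other proteins folded. Many of these genes are nearly silent without heat, while others, such as those of constitutive chaperones, are already much used. GIGANTEA is a protein of the circadian clock that also acts in photoperiodic flowering. The IDs of the 47249 genes had 0 matches in RefSeq's gene table of the assembly CAAS_Brap_v3.01, so no name, function, sequence or position in the genome is given for the 13 genes. The edited gene, heat shock gene lists and tissue markers were not analysed here for the same reason, and the genotypes and the tissue rest on the labels.

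Libraries held from 36778289 to 57777477 counts in genes. The 13 genes were deeply covered, with 4975 to 190798 counts per gene and library, so that counting error was at most 1.42% of a value and the spread between libraries decided the precision. CPM was not divided by gene length, so a level is compared here for 1 gene across libraries and not between genes. One library stood farthest apart from its group. By a chi-square of counts over genes, replicate 1 of wild type at 22 °C differed from replicates 2 and 3 by 353 and 318 per degree of freedom, against 68.8 between those, and the other 9 pairs of replicates gave 14.9 to 120.1. In gi replicate 1 also stood apart, at smaller values. It gave 103.1 and 120.1 at 22 °C, against 39.2 between replicates 2 and 3, and 58.1 and 70.7 at 37 °C, against 14.9. Most of the main values that rest on replicate 1 of wild type at 22 °C are also given without it.

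Mean levels of the 13 genes at 22 °C lay between 240 and 857 CPM, and those at 37 °C between 945 and 4951 CPM. The ratio of the mean at 37 °C to the mean at 22 °C, called the heat ratio here, ran from 2.33 to 7.53 in wild type with a median of 4.62, and from 2.07 to 6.14 in gi with a median of 4.31. Over all genes tested the median ratios were 0.928 and 0.948. In wild type 6 of the 13 had a heat ratio of 6 or more, 2 were from 4 to under 6 and 5 were under 4. In gi these numbers were 1, 6 and 6. All 13 had their 6 libraries at 37 °C above their 6 libraries at 22 °C, and 9 had so when scaled by total counts. Within wild type, 3 libraries at 37 °C lay above 3 at 22 °C for 22.9% of all genes tested, and within gi for 25.5%; as the rule used these contrasts, nothing is read from the comparison. The calls that follow are likewise on the contrast by which the rule chose the 13, so they describe these genes and test nothing. Of all genes tested, edgeR called 18.2% higher at 37 °C in wild type and 16.2% in gi (adjusted p under 0.05). Of the 13 it called 11 in each genotype. The 2 not called in either genotype were BraA01g007460.3.5C and BraA02g012540.3.5C; DESeq2 called the latter in wild type (adjusted p = 0.0301) and in gi (adjusted p = 0.0392).

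**Figure D1:**
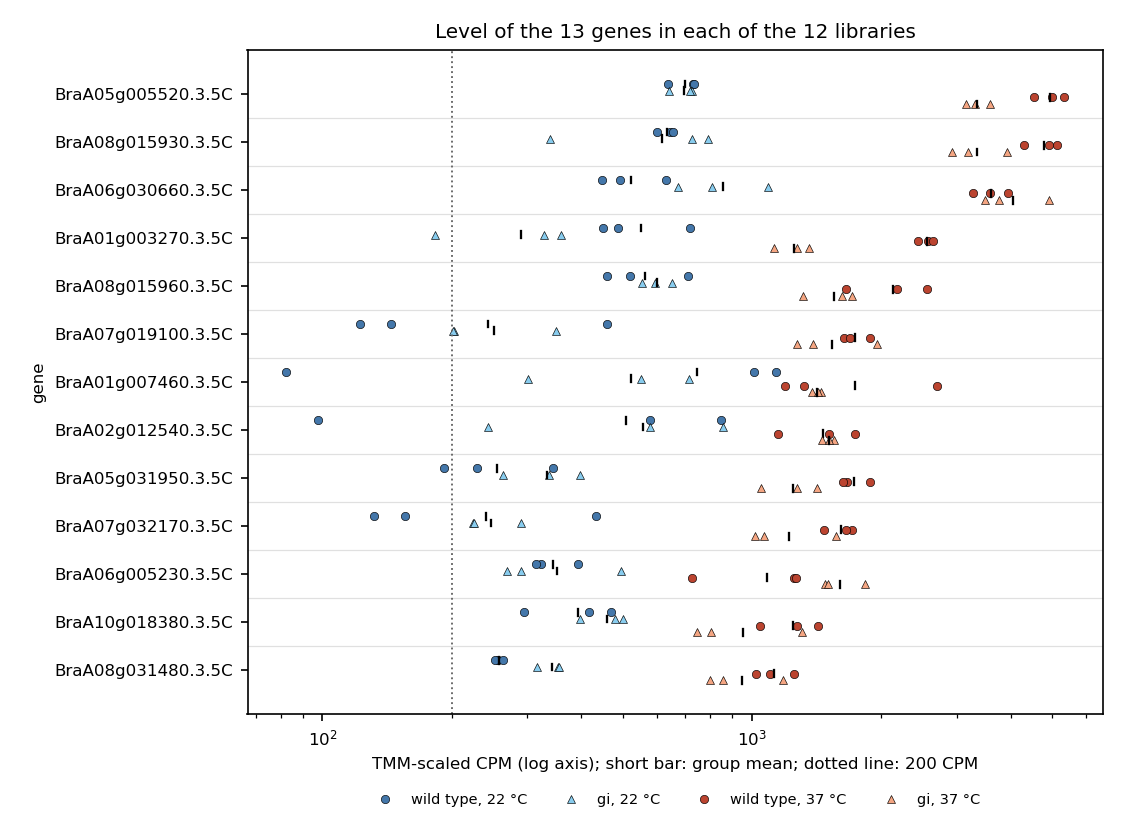
TMM-scaled CPM (log axis) of each of the 13 genes in the 12 libraries, with circles for wild type, triangles for gi, blue for 22 °C and red for 37 °C; short bars are group means and the dotted line is at 200 CPM. For every gene the red symbols lie to the right of the blue ones, and the widest scatter on this axis is that of BraA01g007460.3.5C at 22 °C, where wild type reached from 82.4 to 1140 CPM.

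BraA05g005520.3.5C, the gene with the highest mean CPM at 37 °C, gave close values within each group. Wild type had 729, 731 and 637 CPM at 22 °C and 5001, 4540 and 5313 CPM at 37 °C. In gi the values were 642, 724 and 718 CPM at 22 °C and 3302, 3575 and 3148 CPM at 37 °C. The unheated levels of the genotypes overlapped, while every heated gi library was below every heated wild-type library. Its heat ratio was 7.08 in wild type and 4.81 in gi.

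BraA08g015930.3.5C came second by mean CPM at 37 °C. Wild type had 645, 656 and 602 CPM at 22 °C and 5119, 4297 and 4918 CPM at 37 °C. In gi it had 338, 791 and 723 CPM at 22 °C, with replicate 1 low, and 3924, 3188 and 2916 CPM at 37 °C. Heated gi libraries were again all below the heated wild-type ones. The heat ratio of 7.53 in wild type was the highest among the 13, and that in gi was 5.41.

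Of the other genes, BraA08g031480.3.5C had the steadiest unheated levels in wild type, at 256, 264 and 252 CPM, and went to 1251, 1020 and 1104 CPM. In gi it had 354, 355 and 316 CPM at 22 °C and 1180, 857 and 800 CPM at 37 °C. All 3 unheated gi libraries were above the unheated wild-type ones, while the heated libraries of the genotypes overlapped. BraA08g015960.3.5C had 460 to 710 CPM in wild type and 555 to 653 CPM in gi at 22 °C, with heat ratios of 3.78 and 2.58. BraA10g018380.3.5C had the lowest heat ratio of the 13 in gi, 2.07, against 3.16 in wild type. The naming rule picked 6 of the 13 genes, and the other 7 were named after their values had been seen.

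The genes nearest to the limits of the rule were as follows, counting each gene by its less favourable genotype. The lowest unheated mean inside was 240 CPM and the highest outside, for a gene with both ratios in range, was 198 CPM. The lowest heat ratio inside was 2.07 and the highest below the limit was 1.94. At the upper limit the highest ratio inside was 7.53, and the next above it was 12.7, for a gene with a ratio of 2.59 in gi. Of the 373 abundant genes, 17 were at least 2 times higher at 37 °C in both genotypes, and besides the 13 these were that gene and 3 genes with ratios of 8 or more in both. A further 25 were in the range of 2 to under 8 in wild type only, with heat ratios in gi from 0.343 to 1.94, of which 5 were at least 1.5 and 13 were under 1. The gene with ratios of 12.7 and 2.59 was the 1 gene in range in gi only. Both ratios were 0.5 or less for 49 abundant genes.

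In unheated wild type, replicate 1 differed by 2 times or more from the mean of replicates 2 and 3 for 4 of the 13 genes, and in opposite directions. BraA01g007460.3.5C had 82.4 CPM in replicate 1 of wild type at 22 °C, against 1140 and 1009 CPM in replicates 2 and 3. BraA02g012540.3.5C had 97.5 CPM in that library, against 847 and 580 CPM. The library was thus low for this pair, at 0.0767 and 0.137 times the mean of the other 2 replicates.

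For another pair the same library was high. BraA07g019100.3.5C had 460 CPM in replicate 1 of wild type at 22 °C, against 144 and 122 CPM. BraA07g032170.3.5C had 434 CPM there, against 132 and 156 CPM. These values were 3.45 and 3.01 times the mean of replicates 2 and 3. The pairs were formed by this direction, so the likeness within each pair in this group is not a finding. Among the other 9 genes replicate 1 was at 0.746 to 1.64 times the mean of the others.

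The same direction was seen in replicate 1 of gi at 22 °C for these 4 genes, at a smaller size. BraA01g007460.3.5C had 302, 551 and 714 CPM in gi at 22 °C and BraA02g012540.3.5C had 243, 579 and 854 CPM, so replicate 1 was lowest in both. BraA07g019100.3.5C had 349, 202 and 201 CPM and BraA07g032170.3.5C had 290, 224 and 225 CPM, so replicate 1 was highest in both. At 37 °C the first pair was even in gi, with 1448, 1377 and 1427 CPM of BraA01g007460.3.5C and 1553, 1456 and 1513 CPM of BraA02g012540.3.5C. For BraA07g019100.3.5C and BraA07g032170.3.5C replicate 1 of heated gi was still the highest, at 1.47 and 1.51 times the mean of the others. In heated wild type BraA01g007460.3.5C had 2691 CPM in replicate 1, against 1321 and 1192 CPM in the other replicates.

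Without replicate 1 of wild type at 22 °C, all 4 of these genes left the rule. The heat ratio in wild type of BraA07g019100.3.5C became 12.7 and that of BraA07g032170.3.5C 10.9, and the unheated means, 132 and 142 CPM, were under 200 CPM. That of BraA01g007460.3.5C became 1.57 in place of 2.33 and that of BraA02g012540.3.5C 2.00 in place of 2.89, just under the limit. The other 9 genes stayed, with heat ratios in wild type of 3.17 to 7.97, and 3 genes entered, so that 12 met the rule. A difference of 2 times or more between this library and the mean of replicates 2 and 3 was seen for 30.8% of the 13 and for 53.1% of the 360 other abundant genes. In gi, replicate 1 at 22 °C was outside that range for 3 of the 13 and for 6.39% of the 360.

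**Figure D2:**
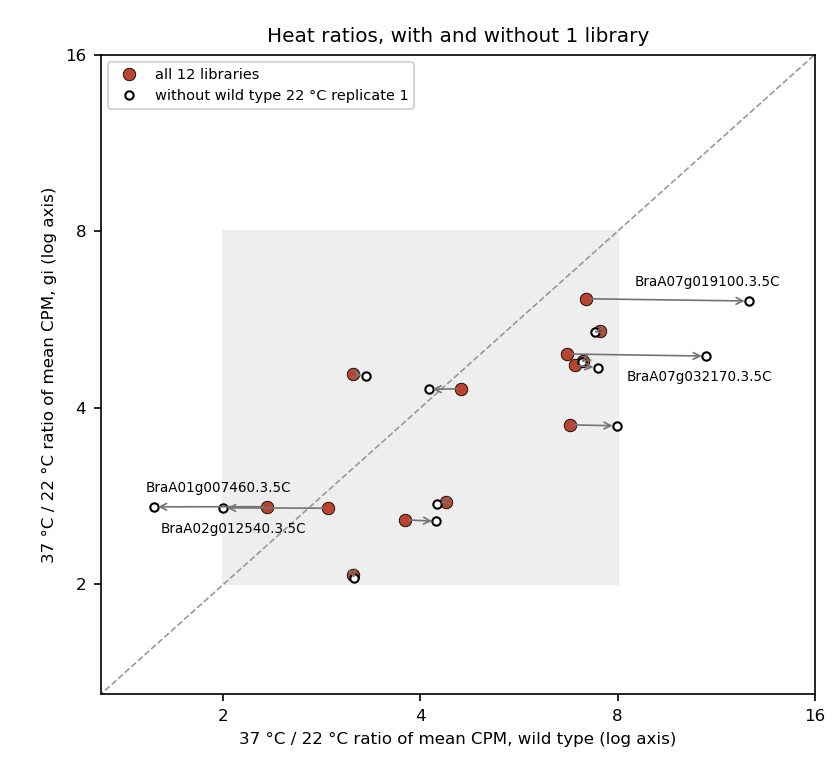
Heat ratio of each of the 13 genes in wild type (x) and in gi (y), both on log axes, from all 12 libraries (filled) and without replicate 1 of wild type at 22 °C (open), joined by arrows; the grey square is the range of the rule and the dashed line marks equal ratios. The 4 labelled genes leave the square. BraA07g019100.3.5C and BraA07g032170.3.5C move right, to 12.7 and 10.9 in wild type. BraA01g007460.3.5C and BraA02g012540.3.5C move left, to 1.57 and 2.00.

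The spread between replicates, given as the coefficient of variation (CV, the SD as a percent of the mean, n = 3), was no part of the rule. The median CV of the 13 genes was 23.1% in unheated and 9.41% in heated wild type, and 24.9% in unheated and 14.7% in heated gi. With all 12 libraries, 9 of the 13 in each genotype had a lower CV at 37 °C. For the 360 other abundant genes the medians were 45.3% and 18.8% in wild type and 17.0% and 15.7% in gi. Without replicate 1 of unheated wild type (n = 2) the medians in that group were 10.4% for the 13 and 13.1% for the 360. That 10.4% is close to the 9.41% of heated wild type, and the count of 9 was not repeated without this library. The highest CV of the 13, that of BraA07g019100.3.5C in wild type at 22 °C, was 78.1% with all 3 libraries. The lowest was 2.37%, that of BraA08g031480.3.5C in the same group.

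The 13 genes, which the rule chose for higher levels at 37 °C in these same counts, together took up a larger share of the heated libraries. Their share of all counts in genes, a measure that needs no scaling factor, was 0.709%, 0.922% and 0.845% in unheated and 2.16%, 2.01% and 2.21% in heated wild type. In gi it was 0.674%, 0.775% and 0.847% at 22 °C and 1.85%, 2.00% and 1.94% at 37 °C. The means were 0.825% ± 0.108 (SD, n = 3) and 2.13% ± 0.103 in wild type, and 0.766% ± 0.0870 and 1.93% ± 0.0748 in gi. Heated and unheated libraries did not overlap, and those of the genotypes did at 22 °C but not at 37 °C, where every gi library was lower. That margin was narrow, with 2.00% as the highest share in heated gi and 2.01% as the lowest in heated wild type.

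**Figure D3:**
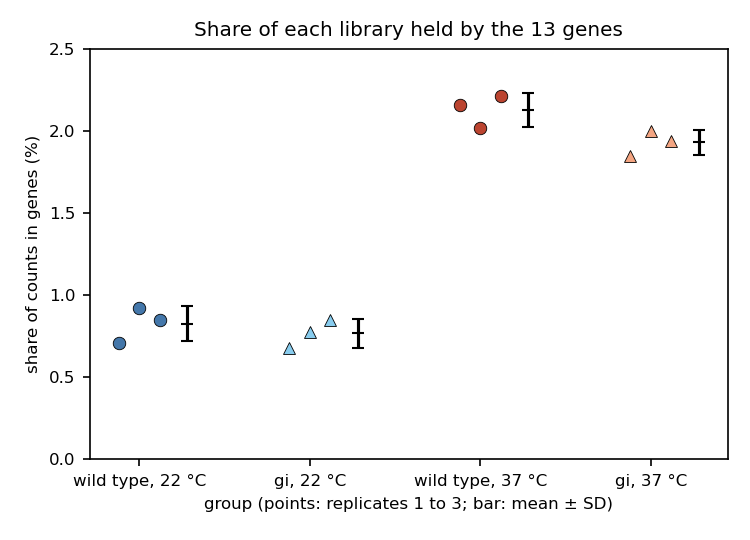
Share of all counts in genes held by the 13 genes in each library, by group, with points for replicates 1 to 3 and bars for mean ± SD. Unheated libraries lie between 0.674% and 0.922% and heated ones between 1.85% and 2.21%.

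How far a single gene was higher at 37 °C depended on the scaling. TMM factors of wild type averaged 1.39 ± 0.134 (SD, n = 3) without and 0.719 ± 0.0489 with heat, and those of gi 1.25 ± 0.0598 and 0.816 ± 0.126. When libraries were scaled by total counts instead, the median log2 heat ratio of all genes tested moved from -0.10 to -1.05 in wild type and from -0.07 to -0.69 in gi. The median ratio of the 13 genes became 2.39 in wild type and 2.77 in gi. With all 12 libraries, all 13 kept a ratio above 1, from 1.14 to 3.90 in wild type and from 1.31 to 3.94 in gi, and 7 kept a ratio of at least 2 in both genotypes. Heated libraries lay above unheated ones by total counts for 11 genes in wild type and 12 in gi. In wild type the smallest ratio by total counts was that of BraA01g007460.3.5C, 1.14. It rests on replicate 1 at 22 °C, where this gene had 82.4 TMM-scaled CPM, against 1140 and 1009 CPM in replicates 2 and 3. BraA02g012540.3.5C was low in that library too. Ratios by total counts were not computed without it, so a ratio above 1 is not shown for these genes in the other libraries.

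Ranks need no scaling either, but rest on the same counts that the rule used. Most of the 13 stood nearer the top in heated libraries. Ranked by counts among all genes of its library, BraA07g019100.3.5C went from a median of 669 in unheated to 100 in heated wild type, and from 459 to 94 in gi. BraA05g031950.3.5C went from 349 to 101 in wild type and from 261 to 113 in gi. BraA01g007460.3.5C instead went from a median of 32 to 119 in wild type, with ranks of 1561, 32 and 26 at 22 °C and 67, 119 and 137 at 37 °C, while in gi its median went from 140 to 95. The median rank was nearer the top at 37 °C for 11 of the 13 in wild type and 12 in gi. The exceptions were BraA01g007460.3.5C and BraA02g012540.3.5C in wild type and BraA10g018380.3.5C in gi.

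**Figure D4:**
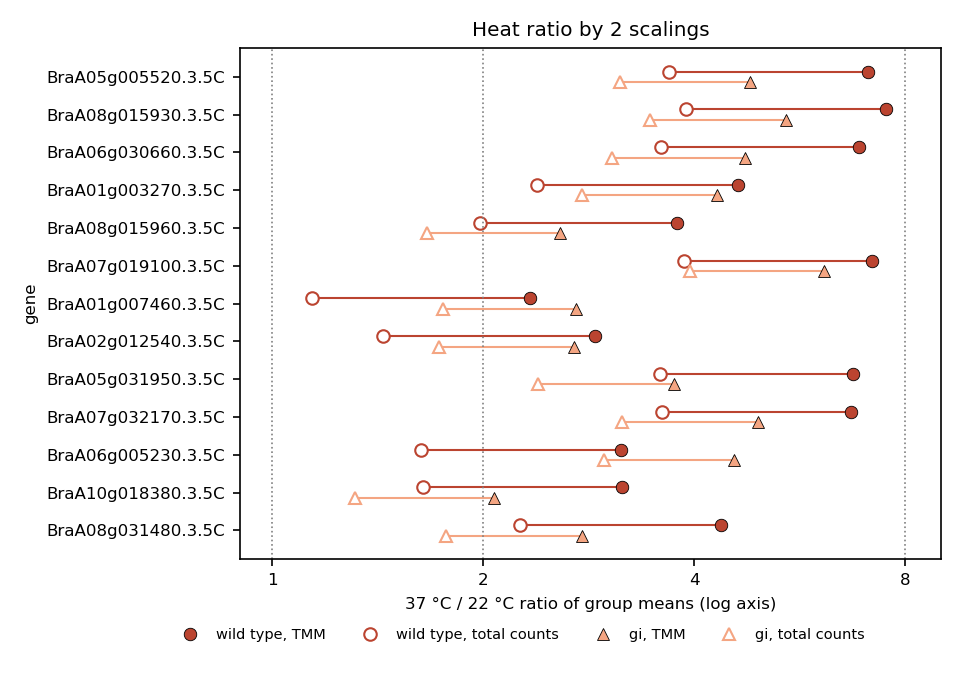
Heat ratio (log axis) of each of the 13 genes in wild type (circles) and gi (triangles), scaled by TMM (filled) and by total counts (open), with dotted lines at 1, 2 and 8. By total counts, with all 12 libraries, all symbols stay above 1 and 7 genes stay at 2 or more in both genotypes.

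Whether the genotypes differed in these genes before heat was tested by comparing gi with wild type at 22 °C. The edgeR quasi-likelihood test called 0 of the 13 after Benjamini-Hochberg adjustment over all genes tested, of which it called 1.01%. An unadjusted p under 0.05 was found for 2 of the 13, against 15.1% of all genes tested, and DESeq2 called 1 lower, where it called 5.46% of the genes to which it gave an adjusted p. The median log2 difference of the 13 was 0.05, that of all genes tested -0.02 and that of the 373 abundant genes 0.25, and 9 of the 13 had a value above 0. Without replicate 1 of wild type at 22 °C the median of the 13 was 0.26 and again 0 were called (2.46% of all genes tested), with an unadjusted p under 0.05 for 6 of the 13 and for 18.2% of all genes tested. With total counts the medians of the 13 and of all genes tested were -0.05 and -0.17, and 9 of the 13 were below 0. Without replicate 3 of wild type at 22 °C 8 of the 13 were below 0. At 22 °C the rule asked for 200 CPM in both genotypes, and the heat ratios it used rest on these means too. It did not compare the genotypes with each other, so these genes could still differ.

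BraA01g003270.3.5C had the smallest p among genes lower in gi at 22 °C. Wild-type libraries held 450, 718 and 488 CPM, all above the 183, 328 and 360 CPM of gi. The log2 difference was -0.93 (SE 0.29, 95% interval -1.57 to -0.29) and was not called by edgeR (adjusted p = 0.179). DESeq2 gave an adjusted p of 0.0107. Without replicate 1 of wild type at 22 °C the edgeR log2 difference was -1.07 (adjusted p = 0.0856).

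BraA06g030660.3.5C had the smallest p among genes higher in gi. Wild-type libraries held 631, 492 and 449 CPM, all below the 1092, 808 and 673 CPM of gi. Its log2 difference was 0.71 (SE 0.27, 95% interval 0.12 to 1.31, edgeR adjusted p = 0.255; DESeq2 adjusted p = 0.0553). When replicate 1 of unheated wild type was left out it was 0.86 (edgeR adjusted p = 0.120). Libraries of the genotypes did not overlap for 3 of the 13, with BraA08g031480.3.5C as the other gene, and for 20.5% of all genes tested.

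After heat, gi plants had lower levels of most of the 13 genes, by amounts the test did not separate from the spread between libraries. At 37 °C the log2 difference was below 0 for 10 of the 13, with a median of -0.39, against -0.02 for all genes tested and -0.17 for the 373 abundant genes. Of these 373, 67.0% were below 0, so the direction was common among abundant genes and is not particular to the 13. With total counts 10 of the 13 were again below 0, with a median of -0.25 against 0.16 for all genes tested. edgeR called 0 of the 13 and 2.7% of all genes tested. An unadjusted p under 0.05 was found for 2 of the 13 and for 20.4% of all genes tested, and without replicate 1 of wild type at 22 °C for 4 of the 13 and 24.8% of all genes tested. DESeq2 called 2 lower, and 10.5% of the genes to which it gave an adjusted p. Libraries of the genotypes did not overlap for 5 of the 13, gi being lower for 4 and higher for 1, and for 30.6% of all genes tested. The rule used the means at 37 °C of both genotypes in its heat ratios, so it limited this comparison too. It left out 25 abundant genes in range in wild type only, with heat ratios in gi from 0.343 to 1.94. It also left out 1 gene in range in gi only. The values therefore describe the 13 genes chosen.

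BraA01g003270.3.5C was lower in gi here too. Wild type had 2569, 2434 and 2645 CPM and gi had 1358, 1273 and 1125 CPM, so that every heated gi library was below every heated wild-type one. The log2 difference was -1.03 (SE 0.29, 95% interval -1.67 to -0.39), which edgeR did not call in the model of all 12 libraries (adjusted p = 0.0834). A fit of the 6 heated libraries alone and DESeq2 (adjusted p = 0.00344) did call it. So did the model without replicate 1 of wild type at 22 °C (adjusted p = 0.0466), which called 6.78% of all genes tested; why the call changed was not tested. Over all alternatives the edgeR and DESeq2 adjusted p ranged from 0.00344 to 0.259. Its heat ratios, 4.62 in wild type and 4.31 in gi, were close, so that the difference between genotypes had about the same size at both temperatures.

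BraA05g005520.3.5C, whose values are given above, was the other gene that DESeq2 called lower in gi at 37 °C, with a log2 difference of -0.57 (SE 0.21, 95% interval -1.03 to -0.10) and an edgeR adjusted p of 0.164. The gene with the smallest p among those higher in gi was BraA06g005230.3.5C. In heated wild type it had 1255, 725 and 1267 CPM, and heated gi was higher in every library, with 1832, 1480 and 1503 CPM. The log2 difference was 0.57 (SE 0.30, 95% interval -0.10 to 1.23) and was not called by edgeR (adjusted p = 0.323).

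**Figure D5:**
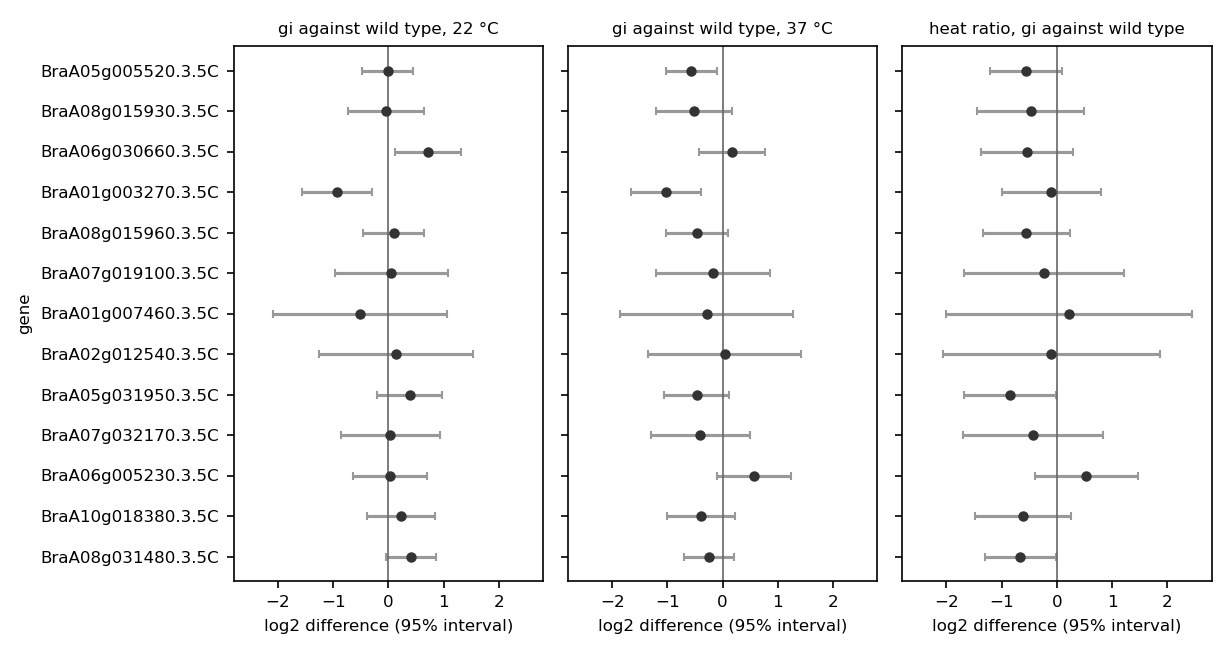
Log2 difference between gi and wild type at 22 °C, at 37 °C and in the heat ratio for each of the 13 genes, from edgeR, with 95% intervals. At 37 °C 10 of the 13 points and for the heat ratio 11 of the 13 lie below 0, and BraA01g003270.3.5C lies at -0.93 and -1.03 at the 2 temperatures.

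The interaction asks whether heat changed a gene by another factor in gi than in wild type. Because the rule held both heat ratios in the same range, it limited this difference to under 4 times, and the values describe the 13 genes rather than test them. The heat ratio was lower in gi for 11 of the 13, and for 9 without either replicate 1 of wild type or replicate 3 of gi at 22 °C. This direction was common: 85.0% of the 373 abundant genes had a lower heat ratio in gi, and 88.3% of 325 when that library was left out. The median log2 interaction was -0.48 for the 13, -0.33 for the 373 and 0.01 for all genes tested. With total counts 8 of the 13 were lower, and the medians of the 13 and of all genes tested were -0.19 and 0.34. edgeR called 0 of the 13 and 0.118% of all genes tested. An unadjusted p under 0.05 was found for 2 of the 13, BraA05g031950.3.5C and BraA08g031480.3.5C, and for 10.2% of all genes tested. Without replicate 1 of wild type at 22 °C these were 6 of the 13, all lower in gi, and 13.2%, the median of the 13 was -0.63, and edgeR again called 0 (0.408% of all genes tested). DESeq2 called 1, BraA05g005520.3.5C (adjusted p = 0.0379), and 1.87% of the genes to which it gave an adjusted p.

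BraA05g031950.3.5C had the smallest p of the 13 in the interaction. In wild type it went from 344, 229 and 192 CPM at 22 °C to 1665, 1627 and 1879 CPM at 37 °C, and in gi from 264, 338 and 397 CPM to 1415, 1271 and 1050 CPM. The genotypes overlapped at 22 °C and did not at 37 °C, and the heat ratio was 6.76 in wild type and 3.74 in gi. Its log2 interaction was -0.85 (SE 0.38, 95% interval -1.69 to -0.02) and was not called by edgeR (adjusted p = 0.483). Leaving out replicate 1 of unheated wild type, the heat ratio in wild type was 7.97 and the log2 interaction -1.10 (edgeR adjusted p = 0.151).

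In the other direction BraA06g005230.3.5C had heat ratios of 3.15 in wild type and 4.57 in gi. Unheated wild type had 394, 322 and 315 CPM, and the 495, 290 and 269 CPM of unheated gi overlapped with these. The log2 interaction was 0.54 (SE 0.43, 95% interval -0.40 to 1.48, edgeR adjusted p = 0.706). BraA06g005230.3.5C and BraA01g007460.3.5C were the 2 genes with a higher heat ratio in gi.

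The 13 genes were spread over 7 of the 10 chromosomes, as named in their IDs, with 3 on A08, 2 each on A01, A05, A06 and A07, and 1 each on A02 and A10. None lay on A03 or A09, which hold 14.7% and 14.3% of the genes tested, or on A04. Of the 373 abundant genes, from which the 13 were drawn, A03 holds 45, A09 58 and A04 28. With only 13 genes nothing is read from these gaps. One pair lay close together by ID: BraA08g015930.3.5C and BraA08g015960.3.5C are 3 IDs apart on A08. The order of IDs is a naming convention that was not checked against a genome. Among the 3 nearest IDs on each side of the 13 genes, 52 were tested and not members, and none of these had 200 CPM at 22 °C in both genotypes. Of the 52, 13.5% (7 genes) were called higher at 37 °C in both genotypes, against 12.7% of all genes tested.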

How the data were processed

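The authors deposited 1 table of raw counts per library (reads per gene). The submitters' processing notes list FastQC, TopHat2, HTSeq and edgeR and give no version; per the labels' protocols the libraries were made with a strand-specific mRNA kit. For the genome build, annotation and strand setting, nothing is given in the sources used here. Near-identical gene copies may share or lose reads. The 5 rows that name no gene were left out; 89.9% to 91.6% of the aligned reads were counted in genes.

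Low genes were removed by filterByExpr of edgeR 4.0.16 in R 4.3.3 (minimum count 10, minimum total 15), libraries were scaled by TMM, and all 12 libraries entered 1 robust quasi-likelihood fit with a mean for each of the 4 groups. P-values were adjusted by Benjamini-Hochberg over all genes tested, and those under 0.05 called. Standard errors were derived from each log2 change and its F value. DESeq2 1.42.0, other scalings and filters, a replicate block and leaving out single libraries were alternatives. The procedure was run on simulated data with known changes, and how many of these it found is not reported here. The chi-square of replicates showed no duplicated library. Deviations of libraries from their group's mean were correlated across genes (log2 of CPM plus 0.5). At 22 °C, libraries of gi and wild type with the same replicate number gave 0.271, 0.196 and 0.158. At 37 °C they gave 0.365, 0.115 and 0.178. Unlike numbers gave -0.323 to 0.216, the highest for replicate 3 of wild type with replicate 2 of gi at 37 °C. The numbers, which come from the labels, were taken as pairs only in the replicate blocks, and the main fit had no pairing.

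The 13 genes and the comparisons were chosen with earlier results of these data known. By the naming rule, genes were named for the 2 highest means at 37 °C, and per comparison and direction for the largest called change or, with none called, the smallest p; this named 6.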

Additional observations from a re-analysis of the deposited data

How the results depend on the processing

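The rule gave 13 genes also with DESeq2 size factors (the same 13) and with total counts (7 of the same and 6 others), 14 without the filter on low counts and 17 with no upper limit of the ratio. It gave 38 genes at a level of 100 CPM and 6 at 400 CPM. Without single libraries it gave 12 to 15 genes; 9 of the 13 were kept without replicate 1 of wild type at 22 °C and 12 or 13 without any other. With total counts the median heat ratios were 2.39 in wild type and 2.77 in gi, and the genes then chosen held 3.86% and 3.53% of heated counts in place of 2.13% and 1.93%. The number of the 13 called was 0 in each genotype comparison and in the interaction under both scalings, without the filter, and with the replicate number as a block, over all libraries (replicate block, 0) or within each temperature (0); the block changed no call. DESeq2 called 1 gene at 22 °C, 2 at 37 °C and 1 in the interaction, and the fit of the heated groups alone called 1. Without single libraries, 0 to 1 gene was called at 37 °C (1 without replicate 1 of wild type at 22 °C) and 0 in the others. Calls over all genes depended more on these choices: 61 to 1568 at 22 °C in place of 292, 212 to 2946 at 37 °C in place of 778, and 9 to 517 in the interaction in place of 34, each highest with DESeq2. The causes were not tested. For 2 counts, total counts, DESeq2 size factors and leaving out single libraries were added after seeing the data: 8 to 11 of the 13 had a lower heat ratio in gi and 9 to 13 had all heated above all unheated libraries, both lowest with total counts. The counts of unadjusted p and the CV without replicate 1 of wild type at 22 °C were added likewise. No gene picked by the naming rule changed direction in its comparison. The order of the genotypes' median heat ratios did turn with total counts, and so did the sign of the median difference at 22 °C, from 0.05 to -0.05, which was also -0.05 without replicate 3 of wild type at 22 °C. The depth of these abundant genes left a counting error far below the spread between libraries.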
